A study of Mus musculus with 4 samples.

Results

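Small nucleolar RNAs (snoRNAs) and small Cajal body RNAs (scaRNAs) were examined in RNA sequencing of fractionated wild-type (WT) hearts of adult mice. The members were all genes whose Ensembl biotype in the deposited table is snoRNA or scaRNA, at any level, which gave 91 of the 15746 listed genes, 80 of biotype snoRNA and 11 of biotype scaRNA. The isolated mitochondria (the mitochondrial fraction) and the tissue left after their removal (the rest fraction) were represented by 2 libraries each, without a treatment or genotype other than WT. The rest fraction was the low-speed pellet of the heart homogenate, and the mitochondrial pellet was treated with digitonin and RNase A before RNA isolation, a step not described for the rest fraction. The fragmentation time was set separately for the mitochondrial samples, so that the fraction, the RNase step and the fragmentation cannot be told apart. The sources used here do not say whether libraries come from separate animals, and p-values then measure only the spread between these libraries. In such bulk samples, fewer cells of a type and less RNA per cell cannot be told apart.

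SnoRNAs guide the chemical modification of other RNAs in the nucleolus, and most of them are cut out of the introns of a host gene after splicing. Box C/D snoRNAs direct methylation of the ribose and carry a C box near the 5′ end and a D box near the 3′ end, while box H/ACA snoRNAs direct the change of uridine to pseudouridine and carry an H box between their hairpins and an ACA near the 3′ end. ScaRNAs use the same boxes to modify spliceosomal RNAs in Cajal bodies of the nucleus. A few members, such as Snord118 (U8) and Snord13 (U13), serve in the processing of the ribosomal RNA precursor. The fractions were compared in the study to find noncoding RNAs in mitochondria, and the levels of these nuclear RNAs in each fraction are described here.

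The transcripts of all 91 members were found in GENCODE M21 for GRCm38 by gene ID, with the same position and strand as in the deposited table. The sequences of 11 members are shown because these are abundant members or members with large differences between the fractions, chosen after their values were seen, and their boxes are given in capitals. The box C/D members are shown with the C box TGATGA and the D box CTGA in capitals. Snord17 lies at chr2:144265979-144266216 in Snx5, Gm25835 at chr11:69668852-69668995 in Eif4a1, Snord15a at chr7:99482785-99482932 in Rps3 and Snord87 at chr1:9942463-9942549 in Snhg6, all on the minus strand. The scaRNA Scarna6, at chr1:87784556-87784820 on the plus strand in Atg16l1, carries the same boxes.
Snord17: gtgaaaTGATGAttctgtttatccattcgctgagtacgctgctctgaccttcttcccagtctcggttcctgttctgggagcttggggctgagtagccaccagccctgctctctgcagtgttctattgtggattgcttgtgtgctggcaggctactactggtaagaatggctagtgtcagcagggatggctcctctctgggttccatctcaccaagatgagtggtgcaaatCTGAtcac
Gm25835: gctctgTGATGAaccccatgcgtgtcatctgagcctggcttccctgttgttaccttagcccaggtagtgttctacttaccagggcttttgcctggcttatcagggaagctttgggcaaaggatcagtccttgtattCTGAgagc
Snord15a: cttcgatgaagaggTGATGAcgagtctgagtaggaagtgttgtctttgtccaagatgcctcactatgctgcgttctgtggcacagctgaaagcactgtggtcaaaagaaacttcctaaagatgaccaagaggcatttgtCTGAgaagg
Snord87: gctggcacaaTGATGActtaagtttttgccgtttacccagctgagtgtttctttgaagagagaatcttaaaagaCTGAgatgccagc
Scarna6: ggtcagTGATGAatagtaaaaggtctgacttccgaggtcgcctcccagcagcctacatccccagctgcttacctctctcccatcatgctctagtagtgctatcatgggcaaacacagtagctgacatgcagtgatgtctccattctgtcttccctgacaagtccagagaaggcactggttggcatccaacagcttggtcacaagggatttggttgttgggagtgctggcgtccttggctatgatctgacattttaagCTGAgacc

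The box H/ACA members are shown with the H box ANANNA that lies closest to the middle and with the ACA that ends 3 bases before the 3′ end in capitals. Snora21 lies at chr11:97781639-97781775 in Rpl23 and Gm22422 at chr16:56035753-56035887 in Trmt10c, both on the minus strand. On the plus strand, Snora30 lies at chr7:127527874-127528003 in Gm42715, one of several genes that span it, Gm26448 at chr9:120129351-120129553 in Rpsa, and Gm25788 and Gm22154 at chr4:123291344-123291474 and chr4:123293152-123293282 in Pabpc4. Each of these lies in an intron of the gene named. Gm25788 and Gm22154 are 97.7% identical over 130 bases, so that their counts are uncertain because reads aligning to both were excluded by the authors.
Snora21: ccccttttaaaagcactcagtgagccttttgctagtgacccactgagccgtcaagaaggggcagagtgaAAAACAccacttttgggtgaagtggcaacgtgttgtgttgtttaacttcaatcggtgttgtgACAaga
Snora30: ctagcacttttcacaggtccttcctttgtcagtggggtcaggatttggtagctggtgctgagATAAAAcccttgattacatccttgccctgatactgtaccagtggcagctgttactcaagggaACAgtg
Gm26448: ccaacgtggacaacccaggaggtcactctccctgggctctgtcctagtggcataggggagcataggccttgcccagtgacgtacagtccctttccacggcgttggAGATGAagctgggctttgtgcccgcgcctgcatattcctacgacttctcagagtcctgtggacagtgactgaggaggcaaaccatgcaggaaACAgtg
Gm22422: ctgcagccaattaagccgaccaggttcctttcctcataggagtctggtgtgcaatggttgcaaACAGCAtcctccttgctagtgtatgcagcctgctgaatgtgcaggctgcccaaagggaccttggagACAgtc
Gm25788: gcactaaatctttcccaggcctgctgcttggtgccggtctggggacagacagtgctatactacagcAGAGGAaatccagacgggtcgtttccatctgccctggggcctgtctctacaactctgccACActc
Gm22154: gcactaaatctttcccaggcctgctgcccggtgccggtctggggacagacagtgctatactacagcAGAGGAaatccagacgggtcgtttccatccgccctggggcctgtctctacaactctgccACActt

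Searched on the transcript strand, both the C box in the first 20 bases and the D box in the last 20 bases were found in 15 of the 21 members with a Snord symbol and in 0 of the 12 with a Snora symbol. The ACA at its fixed place was found in 10 of the 12 Snora members and in 0 of the 21 Snord members. Together with an H box within 20 bases of the middle it was found in 9 of the 12. Of the 47 members with another symbol, mostly Gm numbers, 7 carried the C and D boxes and 28 the H box and ACA. The C box and D box share the letters TGA but were searched in separate windows. Among all 1558 annotated snoRNA and scaRNA transcripts, 20.2% carried the C and D boxes and 16.8% the H box and ACA, against 0.0263% and 0.869% of 3796 annotated snRNA, miRNA and miscellaneous RNA transcripts of the same lengths. A missing match says only that these letters are absent from these windows, as in Snord118 and Snord13, in which neither pair was found. By sequence, Gm26448 was 88.2% identical to Snora73a over 204 aligned positions and Gm22422 was 82.0% identical to Snora70 over 133. Of the members, 20 had a copy elsewhere in the annotation with at least 95% identity over at least 90% of their length, and their counts are uncertain for the same reason. Snora21 is among them, being 97.8% identical to the member Gm23795.

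The deposited values are read counts divided by a size factor of each library and rounded, called normalized counts. From the spacing of the values, 1 read was worth 3.87 and 2.55 normalized counts in mitochondria 1 and 2 and 0.264 and 0.365 in rest 1 and 2. The mitochondrial chromosome accounted for 97.6% and 93.5% of normalized counts in mitochondria 1 and 2, and for 63.2% and 67.5% in rest 1 and 2. All 91 members together had 538 and 178 normalized counts in mitochondria 1 and 2, from about 138 and 67 reads, and 2319 and 1682 in rest 1 and 2, from about 8776 and 4604 reads. The members were thus measured with far fewer reads in mitochondria. In mitochondria 1, 51 members were listed at 0, 29 had 1 to 3 reads and 11 had more. In mitochondria 2, 58 were at 0, 28 had 1 to 3 reads and 5 had more. In the rest libraries the median member had 34 and 19 reads. No gene of the table had fewer than about 11 reads in its highest library, a number that corresponds to 42.6 and 28.1 normalized counts in the mitochondrial libraries but to 2.91 and 4.02 in the rest libraries. Of the 91 members, 88 reached it only in a rest library, so that a member mainly present in mitochondria needed a higher level to be listed than one mainly present in the rest fraction. Intervals and limits drawn from reads cover counting error only.

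As a share of the normalized counts of all genes outside the mitochondrial chromosome, the members took 0.0121% and 0.00336% in mitochondria 1 and 2 and 0.0906% and 0.0603% in rest 1 and 2. Both mitochondrial values were below both rest values. The means were 0.00771% ± 0.00615 and 0.0755% ± 0.0214 (SD, n = 2 each), a 9.79-fold difference, and a two-sided exact permutation test gave p = 0.3333, the smallest value that 2 against 2 libraries allow. Related to nuclear protein-coding genes only, the difference was 5.75-fold, and without Snord17, the highest member, it was 9.49-fold. With mitochondria 1 left out, the log2 ratio was -4.49 instead of -3.29.

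The fractions were compared gene by gene with limma's moderated test on log2 of the normalized count plus 1, over 12150 genes that reached 10 normalized counts in 2 or more libraries, with Benjamini-Hochberg adjustment over these genes. Of the members, 37 were tested, and 6 of them were lower and 0 higher in mitochondria at an adjusted p under 0.05. Over all tested genes, 1.39% were called lower and 2.16% higher by this rule. At an unadjusted p under 0.05, 28 members were lower and 0 higher, against 16.2% and 14.1% of all tested genes. All 37 had a negative log2 fold change, as did 56.2% of all tested genes, and the values lay between -5.33 and -0.23 with a median of -2.99, beside a median of -0.14 over all tested genes. With members at 0 in both mitochondrial libraries set to their lower bound, the median was -2.12. These counts carry the selection of the filter with them, since 36 of the 37 passed it with both rest libraries and 5 with both mitochondrial libraries, and a member that passed only through the rest fraction had to differ. The count of 6 was 0 with a pseudocount of 0.1 and 0 when any library was left out, and it was 29 when the libraries were scaled to their total outside the mitochondrial chromosome, where the median of all tested genes was -0.98. Scaled to the whole library total, where the median of all tested genes was -3.93, all 37 tested members were called lower, as were 12022 of the 12150 genes.

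**Figure D1:**
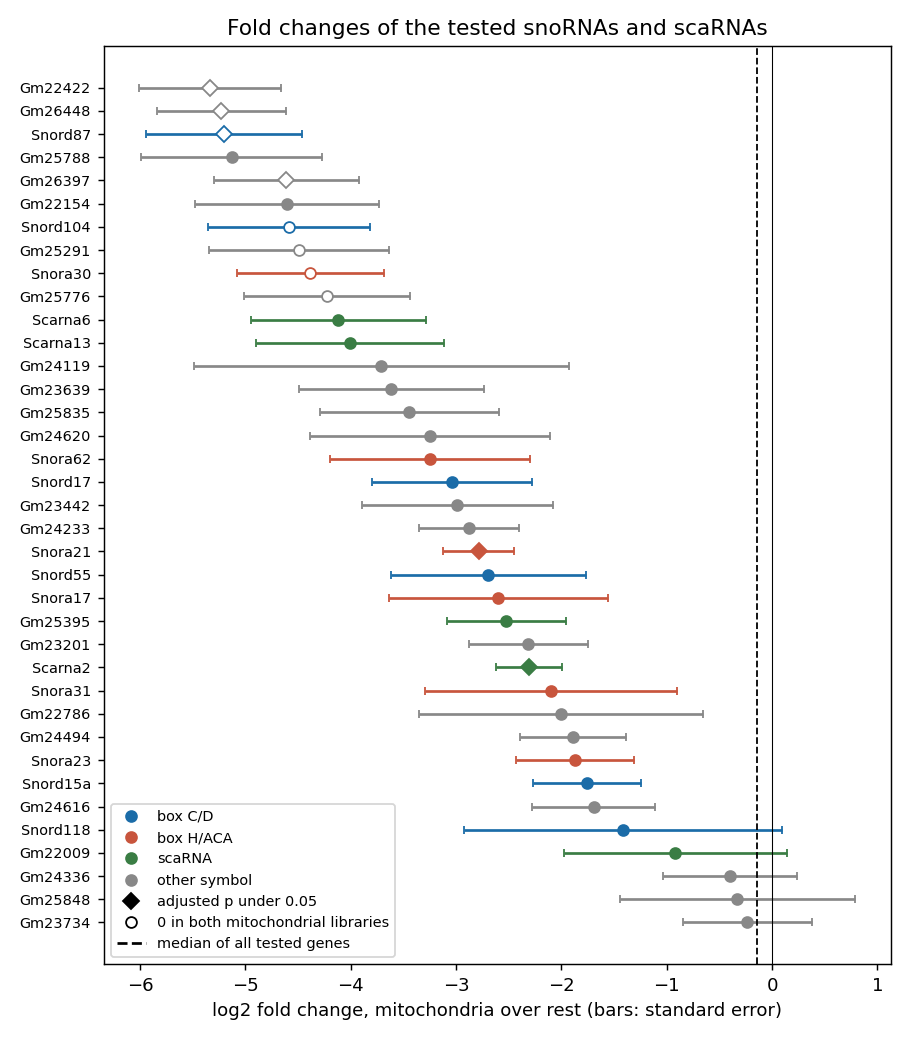
Log2 fold change of each of the 37 tested members (mitochondria over rest, points) with its standard error (bars), coloured by class, with diamonds for an adjusted p under 0.05 and open symbols for members at 0 in both mitochondrial libraries. All points lie below 0, from -5.33 for Gm22422 to -0.23 for Gm23734, and the dashed line marks the median of all tested genes at -0.14.

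Among all 91 members, both mitochondrial values lay below both rest values in 69 and above them in 0, and the ranges overlapped in 22. Over all 15746 listed genes, 33.8% lay below and 23.0% above in this way. The count of 69 and the counts by class cannot be read against these shares, because 88 of the 91 members entered the table only through a rest library and 38 of the 69 were at 0 in both mitochondrial libraries, where any rest value counts as below. Of the 52 members above 0 in a mitochondrial library, 31 lay below and 21 overlapped. Of the 37 tested members 31 lay below, beside 33.4% of all tested genes, and this count carries the selection described above. By class, 16 of the 21 box C/D members, 11 of the 12 box H/ACA members, 8 of the 11 scaRNAs and 34 of the 47 members with another symbol lay below. Both mitochondrial libraries listed 39 of the 91 members at 0, compared with 5.28% of all listed genes. Of these 39, only 9 had a rest mean above the 9.64 normalized counts that 3 reads per library give in the mitochondrial libraries, and their difference was at least 1.04-fold to at least 4.36-fold. For the other 30 no fold is given. From the pooled reads, the exact 95% lower limit of the ratio of rest to mitochondria lay between 0.358 and 1.68 in these 30 and was above 1 in 11 of them.

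Among the box H/ACA members, Snora21, which guides modification of ribosomal RNA and lies in an intron of the ribosomal protein gene Rpl23, was the most abundant. It had 31 and 18 normalized counts in mitochondria 1 and 2 and 184 and 155 in rest 1 and 2. The mitochondrial values were well below the rest values without overlap. The means were 24.5 ± 9.19 and 169.5 ± 20.5 normalized counts (SD, n = 2 each), giving -2.78 ± 0.336 (SE) on the log2 scale with an adjusted p of 0.0427 by limma, and the mitochondrial values rest on 8 and 7 reads. Snora23, in an intron of Ipo7, had 23 and 15 normalized counts in mitochondria and 116 and 43 in the rest fraction. Its groups did not overlap, but the rest libraries differed from each other more than the mitochondrial ones did (log2 fold change -1.87 ± 0.561 SE, adjusted p = 0.113 by limma). Gm25788 had 4 and 0 normalized counts in mitochondria and 83 and 72 in the rest fraction. Its single mitochondrial read set the rest level at 51.0 times the mitochondrial one, with an exact 95% interval of 9.10 to 2016, and its log2 fold change of -5.13 had an adjusted p of 0.0529 from limma. The near-identical Gm22154 of the same host, named after its values were seen, had 4 and 0 in mitochondria and 53 and 54 in the rest fraction.

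Named after their values were seen, 3 further H/ACA-type RNAs with Gm symbols passed the test, and all of them were listed at 0 in both mitochondrial libraries. Gm26448 had 43 and 31 normalized counts in the rest libraries and was at least 3.84-fold lower in mitochondria (adjusted p = 0.0427 from limma). Gm22422 had 57 and 27 in the rest libraries and was at least 4.36-fold lower (adjusted p = 0.0427). Gm26397, in an intron of Tomm20, had 29 and 19 and was at least 2.49-fold lower (adjusted p = 0.0473). The bounds were set at 3 reads per mitochondrial library. All 3 passed the filter on low values only through the rest libraries, so that they had to differ. None was called with a pseudocount of 0.1, where 0 of all 12150 tested genes were called in either direction. Snora30, shown above and also named after its values were seen, had 22 and 18 normalized counts in the rest libraries and 0 in both mitochondrial ones, and its adjusted p of 0.0502 from limma lay just outside the threshold.

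Snord17, a box C/D snoRNA that guides methylation of ribosomal RNA, had the highest level of all members in the rest fraction. It had 66 and 15 normalized counts in mitochondria 1 and 2 and 366 and 197 in rest 1 and 2. The groups did not overlap, although the mitochondrial libraries lay far apart. Mean levels were 40.5 ± 36.1 for mitochondria against 281.5 ± 119.5 for rest (SD, n = 2 each), and the log2 fold change was -3.04 ± 0.758 (SE) at an adjusted p of 0.0821 by limma. Gm25835, which carries the C and D boxes, had 31 and 5 normalized counts in mitochondria and 189 and 119 in the rest fraction (log2 fold change -3.45, adjusted p = 0.0802). Snord15a, hosted by the ribosomal protein gene Rps3, had 39 and 15 in mitochondria and 98 and 73 in the rest fraction (log2 fold change -1.76, adjusted p = 0.107). In both, each mitochondrial value was below each rest value. Snord87, hosted by the noncoding gene Snhg6 and named after its values were seen, was at 0 in mitochondria 1 and 2 and at 22 and 58 in rest 1 and 2. It was at least 4.15-fold lower in mitochondria (adjusted p = 0.0469 from limma), with the same limits of the filter and the pseudocount, and its rest libraries lay far apart.

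**Figure D2:**
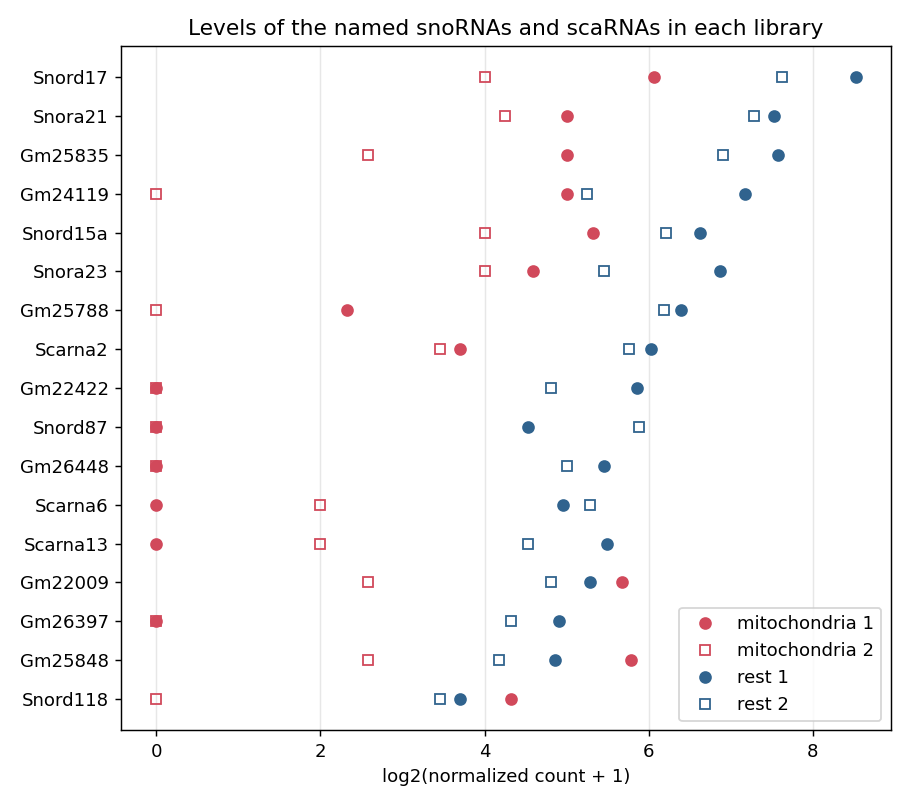
Log2 of the normalized count plus 1 (horizontal axis) of 17 tested members in each library, with mitochondria in red, rest in blue and replicate 2 drawn open. These are the tested members named by rule and the other members called lower. In 14 members both mitochondrial points lie left of both rest points, while Gm22009, Gm25848 and Snord118 have mitochondria 1 to the right of the rest points and mitochondria 2 to the left.

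The scaRNA Scarna2, which has no host gene in the annotation, was measured evenly. It had 12 and 10 normalized counts in mitochondria and 64 and 53 in the rest fraction, with means of 11 ± 1.41 and 58.5 ± 7.78 (SD, n = 2 each), and differed by -2.31 ± 0.317 (SE) on the log2 scale at an adjusted p of 0.0455 by limma. The mitochondrial values rest on 3 and 4 reads, and the ratio of reads, rest over mitochondria, was 5.51 with an exact 95% interval of 2.65 to 13.8. Scarna6 had 0 and 3 normalized counts in mitochondria and 30 and 38 in the rest fraction, and Scarna13, hosted by the noncoding gene Snhg10, had 0 and 3 against 44 and 22. Each had 1 read in the mitochondrial libraries together, and the ratios of reads were 21.7 (exact 95% interval 3.86 to 863) and 22.6 (4.02 to 898). Their adjusted p-values from limma were 0.0625 and 0.0682. Scarna17 had 8 and 3 normalized counts in mitochondria and 4 and 3 in the rest fraction, with overlapping groups, and was too low to be tested.

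In 6 of the 37 tested members the ranges of the fractions overlapped. Of these, 3 were among the members named by rule, all with a large gap between the mitochondrial libraries. Gm25848, an H/ACA-type RNA in an intron of Fbxo45, had 54 and 5 normalized counts in mitochondria 1 and 2 and 28 and 17 in rest 1 and 2 (log2 fold change -0.33, adjusted p = 0.858 from limma). The 14 and 2 reads behind its mitochondrial values gave exact 95% intervals of 29.6 to 91.0 and 0.618 to 18.4 normalized counts, which do not overlap. The scaRNA Gm22009, in an intron of Kpna4, had 50 and 5 in mitochondria and 38 and 27 in the rest fraction (log2 fold change -0.92, adjusted p = 0.589), and its intervals of 26.8 to 86.1 and 0.618 to 18.4 did not overlap either. Snord118, the U8 RNA needed to make the RNAs of the large ribosomal subunit, had 19 and 0 in mitochondria and 12 and 10 in the rest fraction (log2 fold change -1.42, adjusted p = 0.555). The 5 and 0 reads of Snord118 in mitochondria 1 and 2 gave exact 95% intervals of 6.29 to 45.2 and 0 to 9.41 normalized counts, which overlap. With mitochondria 2 left out, the log2 fold changes of these 3 RNAs were 1.27, 0.63 and 0.74. Gm24119, in an intron of the mitochondrial phosphate carrier gene Slc25a3, had 31 and 0 in mitochondria and 143 and 37 in the rest fraction (log2 fold change -3.71 ± 1.78 SE, adjusted p = 0.232). Its groups did not overlap, but mitochondria 1 and rest 2 lay close together. Over all members, 38 were higher in mitochondria 1 than in mitochondria 2, 14 were lower and 39 were at 0 in both.

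Of 21 snoRNAs and scaRNAs chosen for their roles, 7 were in the table, 5 of them were tested, and 1, Scarna2, was called lower. Over all tested genes 1.39% were called lower, and this short list carries the selection of the filter described above. Among the 7, Snord13 (U13) was at 0 in both mitochondrial libraries and at 8 and 6 in the rest libraries, below the level that 3 reads give in mitochondria. Of the 4 snoRNAs of the Rpl13a introns, known from the response of cells to metabolic stress, Snord32a, Snord34 and Snord35a were listed. All 3 were at 0 in both mitochondrial libraries. They had 8 and 5, 4 and 14, and 2 and 7 normalized counts in rest 1 and 2. Their rest means lay under the 9.64 normalized counts that 3 reads in each mitochondrial library give, so that no fold is given. The exact 95% lower limit of the ratio of rest to mitochondria from pooled reads was 1.38 for Snord34, 1.14 for Snord32a and 0.681 for Snord35a, and for Snord13 it was 1.19.

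Longer members were more often listed and had higher levels. Of the annotated snoRNA and scaRNA genes, 4.76% of 462 under 100 bases, 5.53% of 1031 from 100 to under 150 bases and 18.5% of 65 with 150 bases and over were listed. The median rest level of the listed members was 5, 9 and 34 normalized counts in these groups, and Spearman's correlation between length and rest level over the 91 members was 0.414, a description across genes of the same libraries. Scaled to length, the highest rest levels were 1237 normalized counts per kilobase for Snora21, 1183 for Snord17 and 1069 for Gm25835, and 592 for Gm25788. The mitochondrial levels on this scale were 179, 170, 125 and 15.3. For RNAs not much longer than a read, the shortest being 65 bases, this scale is only approximate.

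**Figure D3:**
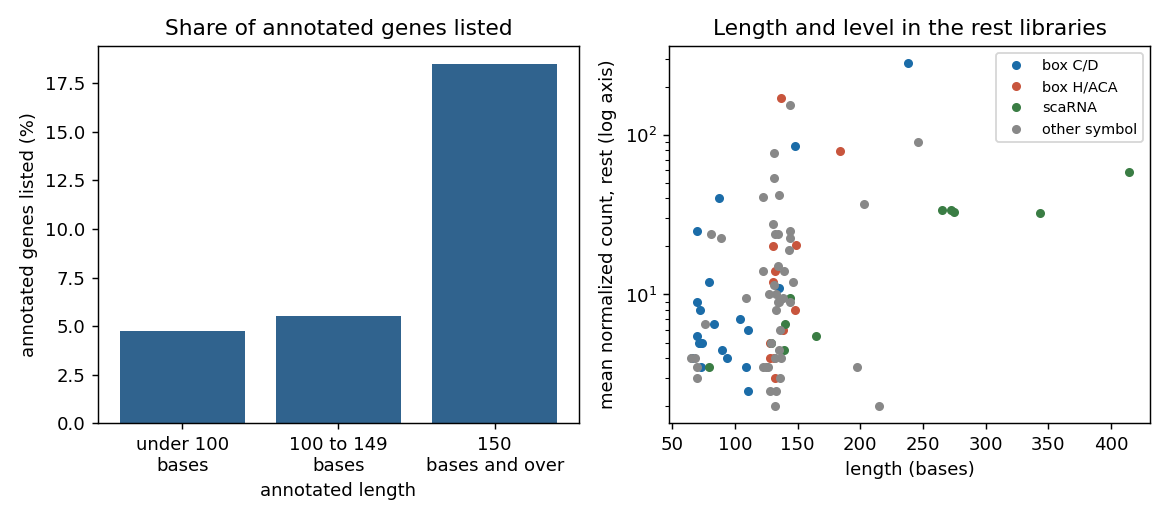
Left, share of annotated snoRNA and scaRNA genes that are listed in the table, by annotated length (bars, %), which was 18.5% for genes of 150 bases and over and about 5% for shorter ones. Right, mean normalized count in the 2 rest libraries (log axis) against length for the 91 members, coloured by class, with Snord17 highest at 281.5.

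The rest libraries also differed from each other by length, a pattern named after the values were seen. Of the 22 members under 100 bases, 17 were higher in rest 2 than in rest 1, 2 were lower and 3 were equal. Of the 69 members with 100 bases and over, 10 were higher in rest 2, 54 were lower and 5 were equal. The short members summed to 146 normalized counts in rest 1 and 270 in rest 2, and the longer ones to 2173 and 1412. The median log2 ratio of rest 2 to rest 1 was 0.80 for the short and -0.42 for the longer members, beside 0.00 for all tested genes. Snord34 with 4 and 14, Snord104 with 15 and 35 and Snord87 with 22 and 58 were among the short ones, while Snora23 with 116 and 43 and Gm24119 with 143 and 37 were among the longer. The cause was not tested.

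**Figure D4:**
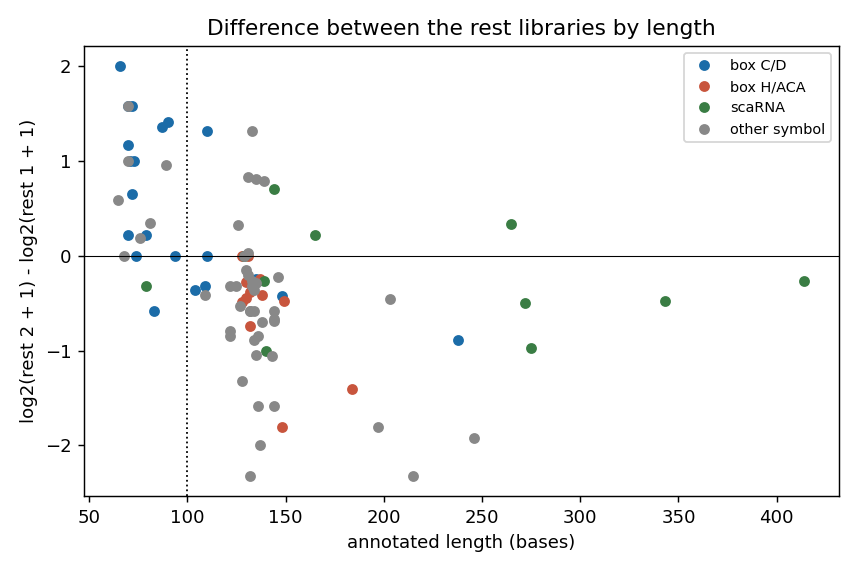
Log2 ratio of rest 2 to rest 1 (normalized count plus 1, vertical axis) against annotated length for the 91 members, coloured by class, with a dotted line at 100 bases. Left of the line 17 of 22 points lie above 0, and right of it 54 of 69 lie below 0.

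Host genes were taken as the gene that spans the member on the same strand. A host was found for 80 members, of which 77 lay in an intron of the host in every annotated transcript and 3 overlapped one of its exons, where reads shared with the host were excluded by the authors. The host was protein-coding for 71 members. Reads from an intron that is not yet spliced count for the member when they lie on it, and such reads and the mature RNA cannot be told apart. The 28 tested members with a tested host had 25 different hosts. Of these hosts, 17 had a positive and 8 a negative log2 fold change (median 0.30), and 4 were called higher and 0 lower in mitochondria. Over all tested genes 56.2% had a negative log2 fold change, 2.16% were called higher and 1.39% lower. Of the 28 members, 26 had a lower log2 fold change than their host. This count carries the selection of the filter, since 27 of these 28 members passed it in both rest libraries and 4 in both mitochondrial libraries, while the host passed in both mitochondrial libraries in all 28 pairs. The 4 members, Snora21, Snora23, Snord15a and Snord17, all lay below their host. The sign of the host values depended on the scaling. Under the total outside the mitochondrial chromosome 8 of 25 hosts were positive, and under the whole total 0 were. Under each of the 4 scalings 17 hosts lay above the median of all tested genes and 26 members below their host. A scaling divides all genes of a library by a common factor and shifts them nearly alike. These counts could therefore hardly change, and their agreement tests nothing. The 4 called hosts, all called higher, necessarily lay above the median of all tested genes. Their members lay below it, as did all 37 tested members. Rpl23, the host of Snora21, had 511 and 474 normalized counts in mitochondria and 176 and 148 in the rest fraction (log2 fold change 1.60, adjusted p = 0.0427 from limma). Rpsa, the host of Gm26448 and Snora62, had 2471 and 1990 against 517 and 541 (log2 fold change 2.07, adjusted p = 0.0427). Rps3, the host of Snord15a, had 426 in each mitochondrial library against 203 and 169 in rest 1 and 2 (log2 fold change 1.20, adjusted p = 0.0484), and Tpt1, the host of Snora31 (named after its values were seen), had 3261 and 3880 against 1003 and 1284 (log2 fold change 1.65, adjusted p = 0.0427). Snx5, the host of Snord17, and Pabpc4, the host of Gm25788, had log2 fold changes of 1.06 and 1.04 with adjusted p-values of 0.0699 and 0.0548. Eif4a1 and Trmt10c, the hosts of Gm25835 and Gm22422, were close to 0 (log2 fold changes 0.10 and 0.01). Under the total outside the mitochondrial chromosome Rpl23, Tpt1 and Rps3 were no longer called (log2 fold changes 0.74, 0.78 and 0.34), and under the whole total all 4 of these hosts were negative. The members that did not lie below their host were Gm25848 (-0.33, host Fbxo45 -0.63) and Gm23734 (-0.23, host Mgat5 -1.06).

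**Figure D5:**
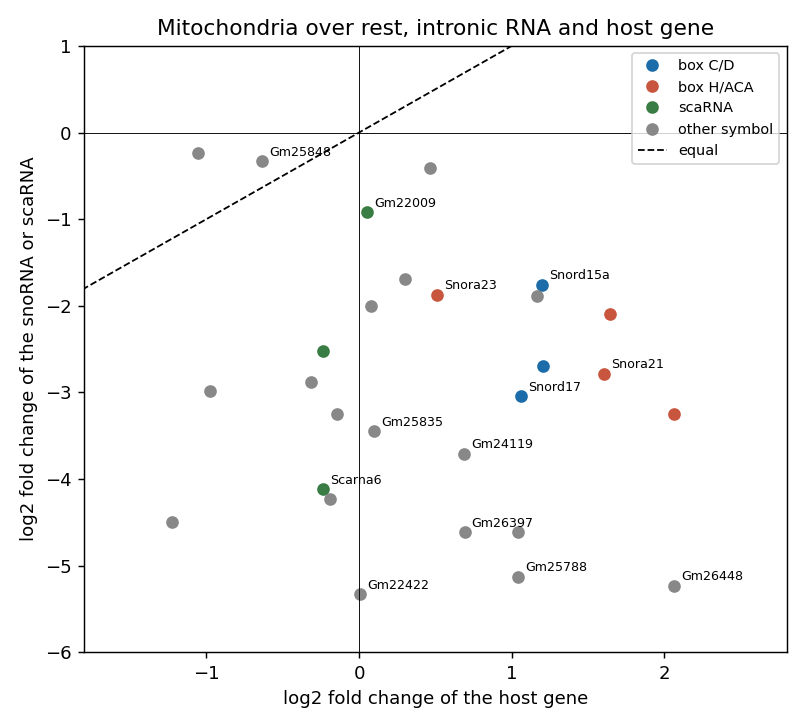
Log2 fold change (mitochondria over rest) of the 28 tested members with a tested host (vertical axis) against that of the host gene (horizontal axis), coloured by class, with a dashed line where both are equal. All but 2 of the points lie under the line, and those of Snora21 and Gm26448 combine a positive host value with a negative own value.

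None of the messages of the proteins that work with these RNAs was called lower with the deposited scaling. Over all tested genes 1.39% were called lower and 2.16% higher, so that a count of 0 in such short lists cannot be set against the members. Of the 4 core proteins of box C/D particles, which include the methyltransferase fibrillarin (Fbl), 0 were called in either direction, and Fbl had 31 and 26 normalized counts in mitochondria and 25 and 22 in the rest fraction. Of the 4 core proteins of H/ACA particles, 3 were tested and 0 were called. The pseudouridine synthase Dkc1 had 43 and 51 in mitochondria and 44 and 47 in the rest fraction, and Nop10 had 50 and 41 against 12 and 11 (log2 fold change 1.89, adjusted p = 0.0538 from limma). Of the 8 assembly factors, 7 were tested and 0 were called. Of the 8 Cajal body and nucleolus proteins, 2 were higher and 0 lower. Nucleolin (Ncl) had 2765 and 2347 normalized counts in mitochondria and 730 and 766 in the rest fraction (log2 fold change 1.77), and nucleophosmin (Npm1) had 616 and 515 against 145 and 160 (log2 fold change 1.88), both at an adjusted p of 0.0427 by limma. Under the total outside the mitochondrial chromosome Ncl was no longer called (log2 fold change 0.90, adjusted p = 0.0611 by limma) and Npm1 was (1.02, adjusted p = 0.0444), and 1 of the 8 was called higher and 1 lower. Under the whole total 0 were called higher and all 8 lower, with -2.22 for Ncl and -2.09 for Npm1, both above the median of all tested genes. Of all 12150 tested genes, 3819 and 12022 were called lower under these 2 scalings.

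Other RNAs kept in the nucleus also lay below the median of all tested genes. The same was seen under each of the 4 scalings, which shift a gene and that median nearly alike and so are not separate checks. Of 8 nuclear noncoding RNAs chosen as markers, 7 were listed and tested, all with a negative log2 fold change (median -1.99). Over all tested genes 56.2% were negative. Among the markers 1, Lncpint, was called lower, beside 1.39% of all tested genes. It had 4 and 15 normalized counts in mitochondria and 234 and 205 in the rest fraction. Malat1, a noncoding RNA of nuclear speckles, had 13226 and 8375 normalized counts in mitochondria and 40240 and 43742 in the rest fraction, and Rn7sk, which controls transcription elongation, had 3137 and 1788 against 3971 and 3939. The labelled tissue was checked with cell type markers. The 7 cardiomyocyte markers summed to between 205978 and 278797 normalized counts in the 4 libraries, with Myh6 alone between 128576 and 184487. Their directions differed, 5 with a positive and 2 with a negative log2 fold change (median 0.88), from 1.88 for Tnnt2 to -1.35 for Ryr2. The 5 endothelial markers summed to 1480 and 1295 in mitochondria and 2461 and 2294 in the rest fraction, the 5 fibroblast markers to 5663 and 2423 against 1533 and 2114, and the 5 erythroid markers to 50 and 341 against 824 and 440. Of the 5 neuronal markers, 1 (Snrpn) was listed, with 50 and 43 against 21 and 21. No gene of these cell type lists was called in either direction with the deposited scaling, and 1 cardiomyocyte marker was called higher with recomputed size factors. Under the total outside the mitochondrial chromosome, all 5 endothelial markers, 3 of the 5 erythroid markers, 1 cardiomyocyte and 1 fibroblast marker were called lower. Under the whole total every tested marker was. Of all 12150 tested genes, 3819 and 12022 were called lower under these 2 scalings, so that the marker counts largely follow the scaling. All 5 endothelial and all 5 erythroid markers had negative log2 fold changes (medians -0.76 and -2.09), while 4 of the 5 fibroblast markers had positive ones (median 0.93). The part of these cell types in the result was not tested.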

How the data were processed

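RNA sequencing of 2 mitochondrial and 2 rest libraries was used. The authors trimmed reads with Trimmomatic 0.39, aligned them to mm10 (GRCm38) with STAR 2.7.10a, counted reads over exons per gene with featureCounts 2.0.2 and scaled them with DESeq2 1.30.1 (versions from the submitters' processing notes). Reads shared between genes, or with more than 1 alignment, did not enter the counts. The deposited score of each gene and library was rounded by the authors after division of the read count by the size factor (normalized count). The use of strand in counting and the rule for listing a gene are not given in the sources used here.

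Groups came from the sample titles. Because the values are not counts, limma 3.58.1 (R 4.3.3, mean-variance trend) was run on log2 of the normalized count plus 1, in place of the authors' count model, with Benjamini-Hochberg adjustment over 12150 genes. On data simulated for 11619 genes with 8-fold changes, 82.7% of changed genes were recovered with 0 false calls. The values were drawn around the means of all tested genes with a fixed spread. This share therefore does not carry over to members with few mitochondrial reads and uneven replicates. Reads were estimated from the spacing of the values. Folds against 0 used a floor of 3 reads per library. Read ratios have exact 95% intervals. Hosts and sequences came from GENCODE M21, and similar copies from blastn. Scripts ran in Python 3.11.15 with pandas 2.3.3 and scipy 1.17.1. Alternatives were other scalings, pseudocounts, filters, a replicate block and libraries left out.

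The members and lists were chosen with earlier results of these data known. Named members were called ones with a mean of at least 50 normalized counts (at most 8 per direction), the 8 highest in each fraction and those on 2 role lists, with their host genes. All other members were singled out once their values were known. The scaling of host genes and lists was compared after seeing the data.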

Additional observations from a re-analysis of the deposited data

How the results depend on the processing

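No member was called higher in mitochondria under any of the 13 alternatives run, an absence that says little. With a pseudocount of 0.1, 0 of all 12150 tested genes were called higher, and with the library total 2 were. In the other fits with all libraries, between 129 of 12150 and 790 of 5556 genes were called higher. Of the 91 members, 88 entered the table only through a rest library. The 6 members called lower became 37 with libraries scaled to their total and 29 with the total without the mitochondrial chromosome. Of all 12150 tested genes, 12022 and 3819 were called lower there, beside 169 in the main fit. With pseudocounts of 0.1, 4 and 10 the counts were 0, 15 and 17 members and 0, 444 and 580 genes. When no filter was applied, 23 of 91 members and 630 of 15746 genes were called lower. With a library left out, a fraction keeps a single library, assumed to vary like the others. The absence of calls in these fits held for the members and for all other genes alike, and its cause was not tested. The count of members called lower was 7 with recomputed size factors, where 203 of 12150 genes were called lower. It was 4 of 5 tested members with a mean above 50, where 670 of 5556 genes were. With the replicate number as a block 309 of 12150 genes were called lower, and the members called in that fit are given below. The median log2 fold change of the tested members was -6.02 with the library total, -3.64 with the total without the mitochondrial chromosome, -4.29, -2.18 and -1.51 with these pseudocounts, -2.32 without the filter, and between -3.30 and -2.31 with a library left out. The log2 ratio of the summed share was -6.70 as a percent of all normalized counts, and between -4.49 and -2.65 with a library left out. Directions reversed for Gm25848 (between -1.93 and 1.27 with a library left out), Gm22009 (-2.46 to 0.63) and Snord118 (-3.58 to 0.74), in each case without mitochondria 2, and for Gm25848 also without rest 1 (0.01). Without mitochondria 2, 5 of the 37 tested members were above 0 in all, the others being Gm23734 (0.32) and Gm24336 (0.30), seen after their values were known. Without the filter, 3 of 91 members were above 0, none of them among the 37. The cause was not tested.

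Replicate numbers are shared between the fractions, but the sources do not say that they mark shared animals, and differences between replicates correlated with r = 0.130 across all tested genes and 0.245 across the tested members. With the replicate number as a block, 9 members were called lower by limma, of which 5 were among the 6, the adjusted p of Gm26397 was 0.0645 (7.18e-14 to 0.526 over its alternatives), and the median was -2.99. Snord17 (0.0243), Gm25835 (0.0311) and Gm25788 (0.0314) were called with the block and not without it, and with rest 1 left out their adjusted p-values reached 0.548, 0.547 and 0.526. The few mitochondrial reads limit what can be said of most members, since the median member had 0 reads in each mitochondrial library. All genes together had about 47400000 and 32100000 reads in mitochondria 1 and 2 and 26300000 and 23500000 in rest 1 and 2.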
